A study of Mus musculus with 20 samples.

Results

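The myelin and oligodendrocyte genes measured here were 9 genes of the mouse hippocampus: Mbp, Mog, Mag, Mobp, Cnp, Cldn11, Olig1, Sox10 and Pdgfra. They were the rows of the deposited count table that carry these gene symbols, 9 of the 25190 genes in the table, and each symbol matched a single row. Oligodendrocytes wrap axons in myelin, a stack of compacted membrane that speeds conduction and that is densest in the fibre tracts bordering the hippocampus. They arise from precursor cells that bear the platelet-derived growth factor receptor alpha, the product of Pdgfra, and that lose this receptor as they differentiate. The transcription factors Olig1 and Sox10 act in the whole lineage, whereas the structural myelin genes are switched on in mature cells.

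The study asked whether small RNAs (sRNAs) from the hippocampus of patients with schizophrenia alter the hippocampus of wild-type mice. All 20 mice were male, wild-type C57BL/6JOlaHsd animals labelled as 4 months old, and all received bilateral infusions into the dorsal hippocampus through implanted cannulas, so no group lacked surgery. The Vehicle mice received artificial cerebrospinal fluid, the Control mice received an sRNA pool from control individuals, and the Pool 1 and Pool 2 mice received sRNA pools from different patients, with 5 mice sequenced per group. The study divided its patients between these pools so that symptom severity and RNA quality were comparable. Hippocampal tissue was taken 24 h after the last behavioural test and polyadenylated RNA was sequenced. All mice of a group received the same donor pool, so the spread within a group is that between mice and not between donors. The libraries held between 20588280 and 25543939 counts, and levels are given as counts scaled to a common library size (CPM), on which scale no member was under 27.0 in any library.

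None of the 9 genes differed between the groups past the threshold used here, a log2 fold change of 0.3 or more in size together with an unadjusted p-value under 0.05 in edgeR's quasi-likelihood test. What these genes did show was a large variation between mice of the same group, in which the myelin genes and Sox10, and to a lesser degree Olig1, went up and down together while Pdgfra stayed almost level. Within a group, the lowest and the highest mouse differed by up to 2.78-fold in Mbp and 2.52-fold in Cldn11, against 1.22-fold in Pdgfra, and over all 20 mice the folds were 3.28, 3.72 and 1.33.

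The genes lie on 9 different chromosomes of the GRCm38 assembly. Mbp spans chr18:82475146-82585637 on the plus strand, Mog chr17:37010743-37023398 on the minus strand, Mag chr7:30899176-30914873 on the minus strand and Mobp chr9:120149707-120181484 on the plus strand. Cnp spans chr11:100574904-100591729, Cldn11 chr3:31149920-31164324, Olig1 chr16:91269772-91271933 and Pdgfra chr5:75152292-75198215, all on the plus strand, and Sox10 spans chr15:79154908-79165240 on the minus strand. Exons of Cnp, Olig1 and Pdgfra overlap a gene on the opposite strand (Dnajc7, Gm15966, and Gm42802 with Gm42803), and those of Mobp and Pdgfra overlap one on the same strand (Gm38642 and Mir7025). The libraries were stranded, but the strand setting of the counting was not given in the sources used here, so these 4 genes may share reads with their neighbours.

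Levels of different genes were compared per kilobase of exonic sequence (RPKM). On this scale Mbp, which encodes the basic protein that compacts the cytoplasmic faces of the myelin membrane, was the highest, with a mean of 295 RPKM over the 20 libraries. Mobp, a second basic myelin protein, followed with 105 RPKM, then Cnp, the cyclic nucleotide phosphodiesterase of non-compact myelin, with 89.7 RPKM and Cldn11, the claudin of myelin tight junctions, with 61.7 RPKM. Olig1 at 42.9 RPKM and Mag, the myelin-associated glycoprotein that faces the axon, at 42.5 RPKM did not differ beyond their spread, their library ranges being 29.6 to 58.1 and 20.4 to 68.9 RPKM. Mog, the glycoprotein of the outermost myelin layer, had 34.7 RPKM, Sox10 had 15.2 RPKM and Pdgfra had 5.04 RPKM. The ranges of neighbours in this order overlapped down to Sox10, whose lowest library, at 9.68 RPKM, stood above the highest library of Pdgfra, at 5.63 RPKM.

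Promoter sequence was found in the RefSeq table (GRCm38.p6) for 6 of the 9 genes: Mog, Mag, Mobp, Cnp, Cldn11 and Pdgfra. Mobp, Mag and Mog are shown because their transcripts varied together between mice, and Pdgfra because it did not. The 250 bases before the RefSeq start were searched on both strands for ACAAAG and ACAATG, letters that SOX-family factors such as Sox10 can bind, for CANNTG, which includes the sites of basic helix-loop-helix factors such as Olig1, and for TATAAA. The capitals mark CTTTGT, the reverse complement of ACAAAG, and bases that reach past the gene start of the deposited annotation are left off. The windows printed are chr9:120149492-120149706 for Mobp, chr7:30914874-30915113 for Mag, chr17:37023399-37023648 for Mog and chr5:75152001-75152250 for Pdgfra, each written 5′ to 3′ on the strand of its gene.
Mobp: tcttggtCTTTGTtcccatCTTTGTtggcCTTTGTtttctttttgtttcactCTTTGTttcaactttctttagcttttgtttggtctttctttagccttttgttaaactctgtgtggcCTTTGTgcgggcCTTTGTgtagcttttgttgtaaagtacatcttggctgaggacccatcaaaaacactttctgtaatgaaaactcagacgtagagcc
Mag: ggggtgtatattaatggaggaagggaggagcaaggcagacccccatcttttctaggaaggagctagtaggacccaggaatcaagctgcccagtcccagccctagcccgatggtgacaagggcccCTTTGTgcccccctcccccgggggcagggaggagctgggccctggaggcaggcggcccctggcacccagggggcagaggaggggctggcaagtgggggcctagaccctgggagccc
Mog: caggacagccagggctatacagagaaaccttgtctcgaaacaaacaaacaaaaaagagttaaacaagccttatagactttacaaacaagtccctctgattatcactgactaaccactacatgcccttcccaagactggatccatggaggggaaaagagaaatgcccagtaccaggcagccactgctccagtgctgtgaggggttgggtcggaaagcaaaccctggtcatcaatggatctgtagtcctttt
Pdgfra: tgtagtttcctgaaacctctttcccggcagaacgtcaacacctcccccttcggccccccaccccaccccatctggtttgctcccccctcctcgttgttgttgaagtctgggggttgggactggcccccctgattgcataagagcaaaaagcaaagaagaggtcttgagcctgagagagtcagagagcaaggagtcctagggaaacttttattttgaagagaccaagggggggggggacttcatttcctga
The Mobp promoter held 6 matches to ACAAAG, those of Mag and Cnp held 1 each, and none was in the windows of Mog, Cldn11 and Pdgfra. Of all 32851 promoters in the table, 16.5% held at least 1 such match. None of the 6 windows held ACAATG, found in 10.7% of all promoters, or TATAAA, found in 12.4%, and CANNTG was in those of Mag, Cnp and Pdgfra and in 66.2% of all promoters. A match is a description of the letters only, and members with and without ACAAAG varied together.

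Mbp measured 3596, 3791, 1811, 2341 and 2129 CPM in the 5 Vehicle mice and 3146, 2939.6, 2899, 2058 and 1201 CPM in the 5 Control mice. The 5 Pool 1 mice had 1154, 2485, 2085, 2444 and 3205 CPM of Mbp, and the 5 Pool 2 mice had 3459.8, 1862, 2281, 2869 and 2255 CPM. Within every group the mice spread widely, from 1.86-fold between the lowest and highest mouse in Pool 2 to 2.78-fold in Pool 1, and all 4 groups overlapped. The mean was 2733 ± 899 CPM in Vehicle, 2449 ± 812 CPM in Control, 2275 ± 747 CPM in Pool 1 and 2545 ± 625 CPM in Pool 2 (SD, n = 5 each). Replicate 1 of Pool 1, at 1154 CPM, and replicate 5 of Control, at 1201 CPM, were the lowest mice of their groups. The next lowest were at 2085 CPM in Pool 1 and 2058 CPM in Control.

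Mobp measured 1138, 1099, 529, 679 and 709 CPM in the 5 Vehicle mice and 857, 804, 878, 598 and 323 CPM in the 5 Control mice. The 5 Pool 1 mice had 312, 759, 607, 667 and 728 CPM of Mobp, and the 5 Pool 2 mice had 1036, 577, 587, 784 and 673 CPM. The same mice were at the bottom, replicate 1 of Pool 1 and replicate 5 of Control, and replicates 1 and 2 of Vehicle were at the top. Replicate 1 of Pool 2 was also high for Mobp and Mbp, while its Cldn11, at 109 CPM, lay in the middle of its group.

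Mag measured 238, 281, 138, 169 and 157 CPM in the 5 Vehicle mice and 194, 184, 167, 152 and 94.1 CPM in the 5 Control mice. The 5 Pool 1 mice had 83.0, 164, 144, 184 and 237 CPM of Mag, and the 5 Pool 2 mice had 175, 139, 183, 211 and 167 CPM. Replicate 2 of Vehicle had the highest level and the groups overlapped. Mog ranged from 46.1 to 83.8 CPM in Vehicle, from 34.5 to 70.7 CPM in Control, from 27.0 to 72.6 CPM in Pool 1 and from 46.4 to 72.1 CPM in Pool 2. Cnp ranged from 171 to 439 CPM and Cldn11 from 50.3 to 187 CPM over the 20 libraries, again with replicate 1 of Pool 1 lowest for both. Pool 2 was the group with the narrowest spread of Cldn11, 1.27-fold from the lowest to the highest mouse.

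Sox10 measured 72.0, 59.7, 40.4, 39.9 and 39.6 CPM in the 5 Vehicle mice and 59.6, 47.0, 47.1, 37.3 and 29.5 CPM in the 5 Control mice. The 5 Pool 1 mice had 30.5, 46.1, 39.9, 45.6 and 63.5 CPM of Sox10, and the 5 Pool 2 mice had 54.5, 40.0, 45.7, 47.7 and 44.1 CPM. Sox10, a factor of the whole lineage that also activates myelin genes, thus varied 2.44-fold over the libraries and was low in the same mice. Olig1, a basic helix-loop-helix factor of the lineage, varied less, from 64.0 CPM in replicate 1 of Pool 1 to 126 CPM in replicate 5 of Pool 1.

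Pdgfra measured 50.6, 54.9, 55.1, 51.7 and 45.3 CPM in the 5 Vehicle mice and 42.5, 46.0, 46.6, 52.0 and 47.2 CPM in the 5 Control mice. The 5 Pool 1 mice had 53.5, 54.1, 51.1, 51.5 and 52.4 CPM of Pdgfra, and the 5 Pool 2 mice had 46.9, 50.5, 48.7, 52.7 and 56.4 CPM. All 20 values lay between 42.5 and 56.4 CPM, and the 5 Pool 1 mice differed by only 1.06-fold. Replicate 1 of Pool 1, lowest for 8 of the 9 genes in its group, was not the lowest for Pdgfra.

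**Figure D1:**
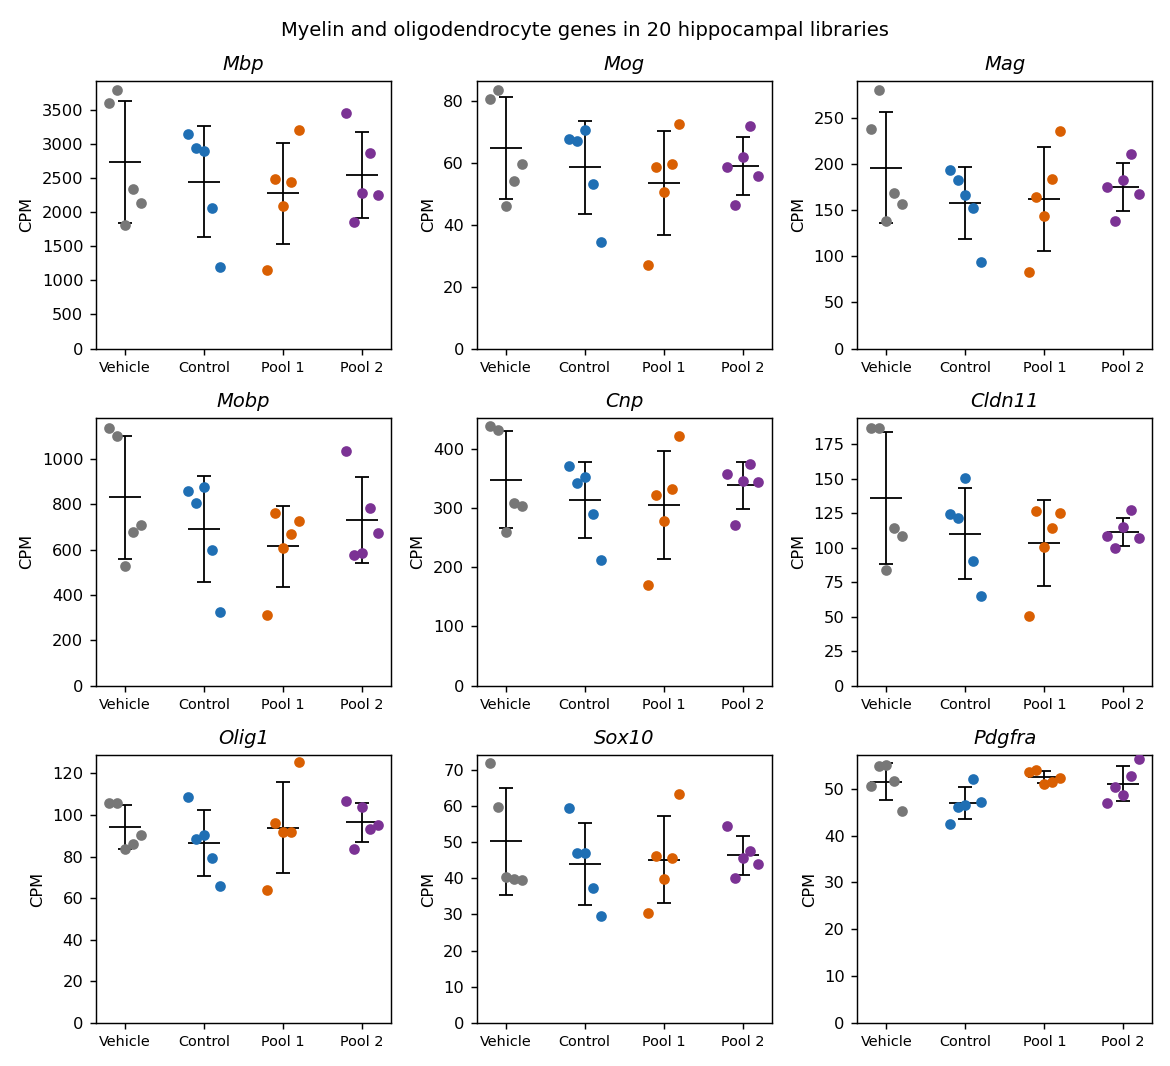
CPM (y axis, from 0) of the 9 genes in the 4 groups (x axis), with 1 point per mouse in replicate order and black bars for mean ± SD (n = 5). The groups overlap in every panel, replicate 1 of Pool 1 and replicate 5 of Control are low in all panels but that of Pdgfra, and the Pdgfra values stay between 42.5 and 56.4 CPM.

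Patient sRNAs of Pool 1 were compared with control sRNAs to see whether the myelin genes respond to them. In Pool 1 against Control, 0 of the 9 genes passed the threshold in either direction, where 3.48% of all 25190 genes did (1.48% higher and 1.99% lower), and the groups overlapped for all 9. The log2 fold changes of the 6 myelin genes ran from −0.17 in Mobp to 0.04 in Mag. That of Mbp was −0.11 with a standard error of 0.29, so that its 95% confidence interval reached from a fold of 0.611 to one of 1.41, and its adjusted p in edgeR was 0.992. Sox10 had 0.03 and Olig1 0.12 on the log2 scale, with standard errors of 0.20 and 0.14. The median of the 9 genes was −0.04 and that of all genes tested −0.01.

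Pdgfra had the smallest p of the 9 genes in this comparison. Its log2 fold change in Pool 1 against Control was 0.16 ± 0.07 (SE), a fold of 1.12 with a 95% confidence interval of 1.01 to 1.25, below the fold threshold. The unadjusted p was 0.0377 in edgeR and 0.0205 in DESeq2, and the edgeR p adjusted over all genes was 0.917. At an unadjusted p under 0.05 and any fold, Pdgfra was thus the 1 member called by each tool, against 5.22% of all genes in edgeR, and the highest Control mouse, at 52.0 CPM, lay above the lowest Pool 1 mouse, at 51.1 CPM. Leaving out single mice gave an edgeR p between 0.0148 without replicate 4 of Control and 0.102 without replicate 1 of Control.

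Against Control, Pool 2 showed values above 0 for all 9 genes, between 0.01 in Mog and 0.16 in Olig1, with a median of 0.08 against 0.00 over all genes. 0 of the 9 passed the threshold, where 6.22% of all genes did (5.2% higher and 1.01% lower), 0 had an unadjusted p under 0.05 in edgeR, against 7.7% of all genes, or in DESeq2, and the groups overlapped for all 9. The Mbp difference was 0.06 with a standard error of 0.29, and its 95% confidence interval covered folds from 0.684 to 1.58. That of Cnp was 0.11 ± 0.20 and that of Pdgfra 0.12 ± 0.07 (SE), with adjusted p of 0.944 and 0.739 in edgeR. Without replicate 1 of Pool 2 and replicate 4 of Vehicle, which stand apart in other transcripts described below, the Mbp and Mobp values in Pool 2 against Control turned to −0.08 each.

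The difference between the patient pools was tested directly, since both share the Control mice. In Pool 2 against Pool 1, 8 of the 9 log2 fold changes were above 0, from −0.04 in Pdgfra to 0.25 in Mobp, with a median of 0.11 against 0.02 over all genes. 0 of the 9 passed the threshold, where 6.82% of all genes did (5.66% higher and 1.16% lower), 0 had an unadjusted p under 0.05 in edgeR, against 8.52% of all genes, or in DESeq2, and the groups overlapped for all 9. The Mobp value had a standard error of 0.29 and an unadjusted p of 0.397 in edgeR's fit across all genes. The interval of Pdgfra, from a fold of 0.875 to one of 1.08, was the narrowest.

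Control was compared with Vehicle to see whether sRNAs of control individuals alone alter these genes. All 9 log2 fold changes were below 0, from −0.31 in Mag to −0.12 in Olig1, with a median of −0.16 against −0.01 over all genes. Mag, with −0.31 ± 0.25, and Cldn11, with −0.30 ± 0.26 (SE), were the 2 members beyond the fold limit in any comparison, but their unadjusted p were 0.221 and 0.260 in edgeR. 0 of the 9 passed the threshold, where 5.1% of all genes did (1.7% higher and 3.41% lower), 0 had an unadjusted p under 0.05 in edgeR, against 6.64% of all genes, or in DESeq2, and the groups overlapped for all 9. Because the myelin genes vary together between mice, the shared direction of the 9 values does not amount to 9 separate observations. In bulk tissue, the number of oligodendrocytes, the RNA per oligodendrocyte and the amount of fibre tract taken cannot be told apart, whether or not levels differ.

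**Figure D2:**
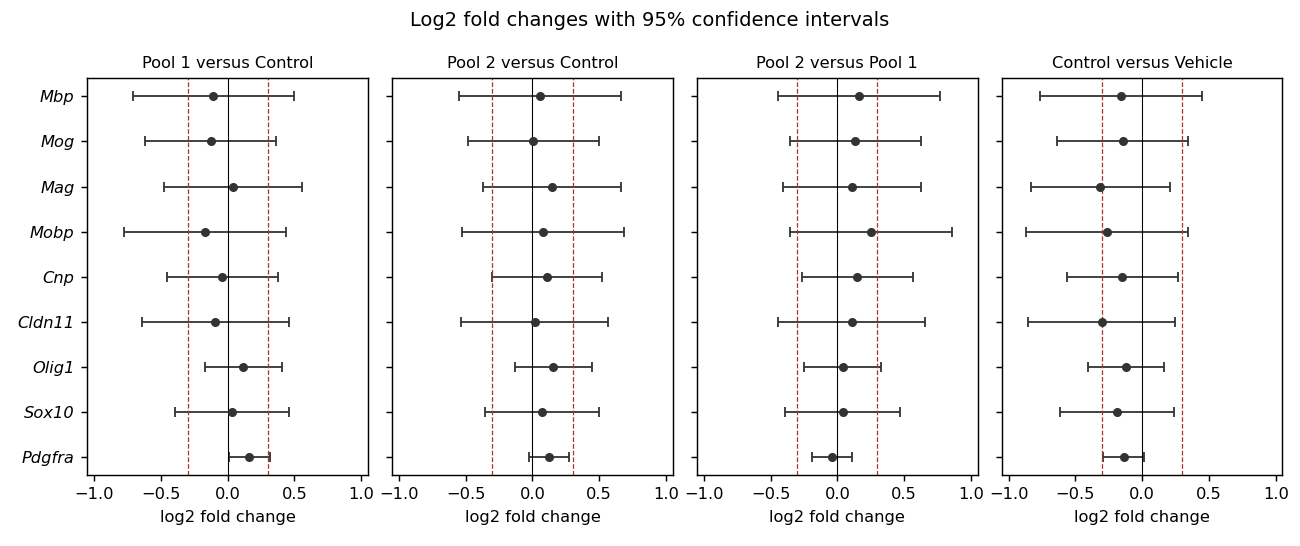
Log2 fold changes (x axis) of the 9 genes (y axis) in the 4 comparisons, with points for the edgeR estimates, bars for 95% confidence intervals and dashed lines at the fold limit of 0.3 in each direction. The interval of Mbp in Pool 1 against Control runs from −0.71 to 0.50 and that of Pdgfra from 0.01 to 0.32, the only one of the 36 that leaves out 0.

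The width of these intervals follows the spread between mice. The standard deviation of log2 CPM within groups was 0.50 in Mbp and in Mobp, 0.45 in Cldn11, 0.42 in Mag, 0.41 in Mog and 0.35 in Cnp. It was 0.35 in Sox10, 0.24 in Olig1 and 0.09 in Pdgfra, and its median over the 14797 genes with a mean of at least 1 CPM was 0.20. Of those genes, 6.57% had a larger spread than Mobp and 95.1% a larger spread than Pdgfra. Membership of a group accounted for 5.34% of the variance of Mbp and 4.91% of that of Sox10, below the median of 15.4% over the same genes, and for 35.8% of that of Pdgfra. Such a share is above 0 even when groups do not differ, and these shares were not tested.

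Most of the spread of each myelin gene was shared with the others. Once the mean of the other 5 myelin genes was subtracted from each, the standard deviation fell to between 0.09 in Mog and 0.18 in Mobp. Across the 20 libraries centred on their group means, the 15 pairs of myelin genes had Pearson's r between 0.88 and 0.98. Sox10 had r between 0.85 and 0.93 with each of the 6, Olig1 between 0.83 and 0.93, and Pdgfra between −0.21 and −0.06. These values share the libraries and their scaling and are given as a description. The genes did not move by equal amounts: for each log2 unit in the mean of the other myelin genes, Mbp moved by 1.16 units and Mobp by 1.12, Mag by 0.95, Mog by 0.93 and Cnp by 0.77. Sox10 moved by 0.74 and Olig1 by 0.52 units of the mean of the 6, and Pdgfra by −0.03.

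Libraries were ranked by the mean log2 CPM of the 6 myelin genes. Replicates 2 and 1 of Vehicle ranked highest, at 8.80 and 8.75, and replicate 5 of Pool 1 came next at 8.49. Replicate 1 of Pool 1 ranked lowest at 7.11, below replicate 5 of Control at 7.33, replicate 3 of Vehicle at 7.82 and replicate 2 of Pool 2 at 7.90. Each group thus held a mouse that was low in nearly all members: replicate 1 of Pool 1, replicate 5 of Control and replicate 2 of Pool 2 were lowest in their group for 8 of the 9 genes, and replicate 3 of Vehicle for 7.

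**Figure D3:**
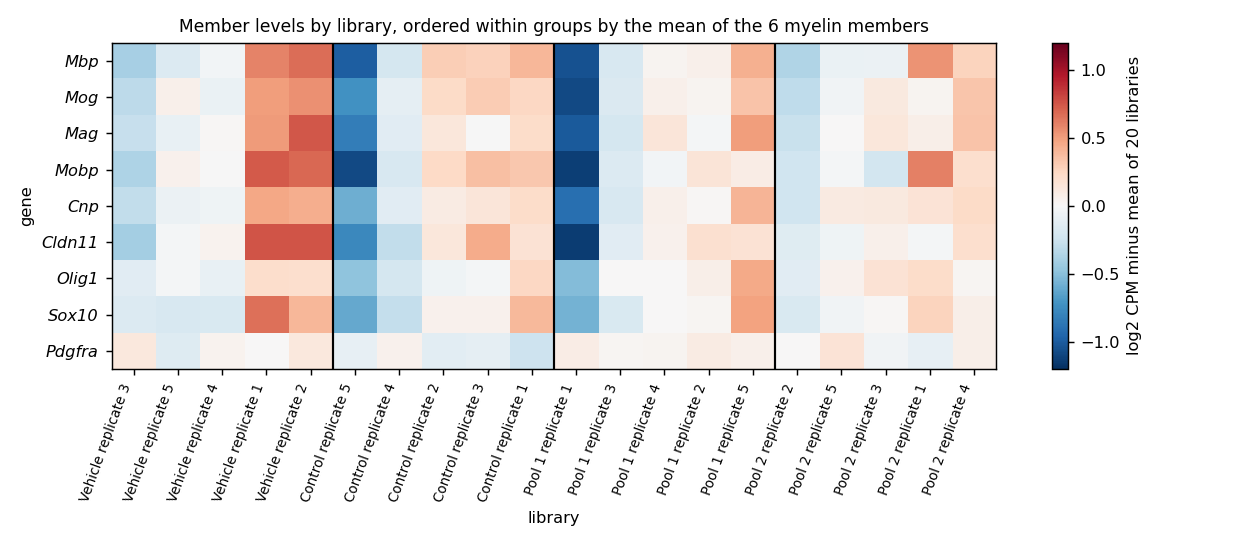
Log2 CPM of each gene (rows) minus its mean over the 20 libraries, as colour, in the single libraries (columns), grouped as Vehicle, Control, Pool 1 and Pool 2 and ordered within groups by the mean of the 6 myelin genes. Most columns keep a similar colour from Mbp to Sox10, with replicate 5 of Control and replicate 1 of Pool 1 lowest, and the Pdgfra row is nearly uniform. Replicate 1 of Pool 2 is an exception, higher in Mbp and Mobp than in Mog, Mag and Cldn11.

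The mean of the myelin genes was related to other measures in a family of 9 relations, which also held those of Pdgfra to other lists. All were computed over the 20 libraries centred on group means and tested by permuting libraries within groups. The mean of Olig1 and Sox10 followed that of the myelin genes with Pearson's r = 0.93 and Spearman's rho = 0.95, permutation p = 1e-05 for both, the smallest the permutations can give, and adjusted p of 4.5e-05 and 9e-05. Leaving out replicate 1 of Pool 1 and replicate 5 of Control, the 2 libraries farthest from the median, left r = 0.87. This relation is contained in the pairwise values given before and is no separate evidence. Pdgfra was not related to it detectably, with r = −0.15 and rho = −0.17 (permutation p = 0.547 and 0.505, adjusted p = 0.914 and 0.757), and r = −0.13 without the same 2 libraries.

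A list of 26 other genes of myelin and mature oligodendrocytes followed the 6 myelin genes with r = 0.98 and rho = 0.96 (permutation p = 1e-05 and 2e-05, adjusted p = 4.5e-05 and 9e-05), and r = 0.96 without the 2 libraries. Of these 26 genes, 23 had r above 0.8 with the mean of the 6, as did 112 of all 14788 genes compared. The exceptions, named after their values were seen, were Sirt2 at 0.797, Ugt8a at 0.779 and Omg, which neurons also express, at 0.348. The 10 genes most like the mean of the 6 by Pearson's r were Gal3st1 at 0.97, the sulfotransferase that makes sulfatide, then Gltp, Trf, Gjb1, Tprn, Nipal4, Galnt6, Fa2h, Mal and Nkx6-2, down to 0.95. Of these, 6 were on the list of other myelin genes, and Gltp, Tprn, Nipal4 and Galnt6 were not. Gltp encodes a glycolipid transfer protein, Trf transferrin and Gjb1 a gap junction protein.

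Genes of earlier stages were compared in the same way. Of the 10 other precursor genes, 0 had r above 0.8 and the median was 0.12, with Cspg4, the NG2 proteoglycan, at −0.13 and Olig2 at 0.66. Of the 6 genes of differentiating oligodendrocytes, the median was 0.55, with Bcas1 at 0.94, Nkx2-2 at 0.78, Enpp6 at 0.75, Bmp4 at 0.35, Gpr17, which marks newly committed cells, at 0.18 and Itpr2 at −0.26. Pdgfra itself had r = 0.44 with the mean of the other precursor genes (rho = 0.28, permutation p = 0.106 and 0.279, adjusted p = 0.319 and 0.628), and r = 0.15 without the 2 libraries farthest from its median. With the mean of the leptomeningeal markers Pdgfra had r = 0.17 (rho = 0.29, permutation p = 0.502 and 0.261, adjusted p = 0.914 and 0.628), and r = 0.35 without the same 2 libraries. The 5 genes most like Pdgfra were Pde10a at 0.91, A830073O21Rik and Spred2, an inhibitor of growth factor signalling, at 0.88 and 0.87, and Lss and Eif2ak4 at 0.87 each.

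**Figure D4:**
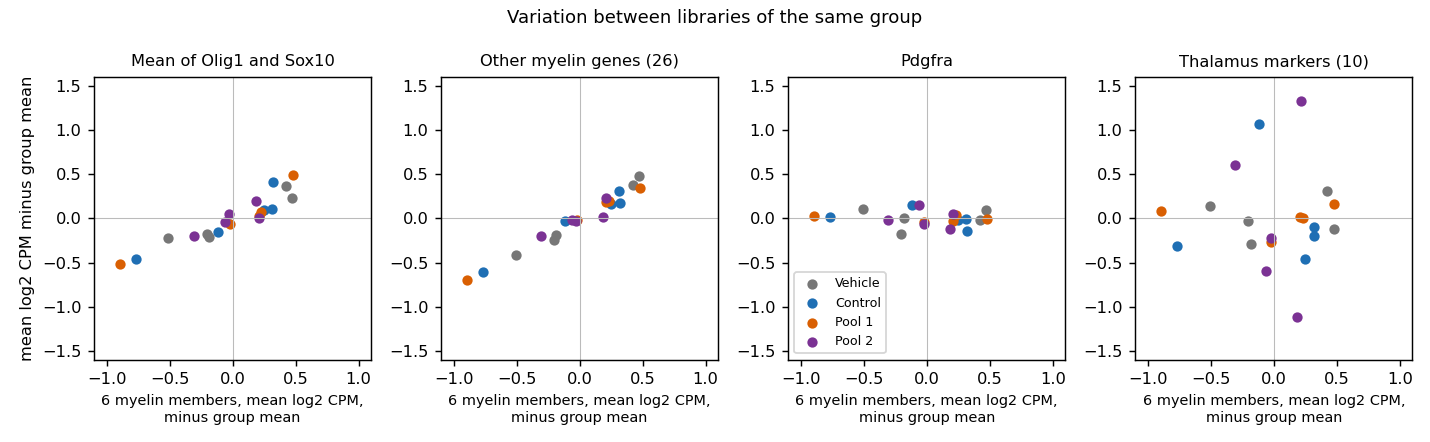
Mean log2 CPM of Olig1 and Sox10, of the 26 other myelin genes, of Pdgfra and of 10 thalamus markers (y axes) against that of the 6 myelin genes (x axis), all minus the group mean, with 1 point per library coloured by group. The first and second panels rise (r = 0.93 and 0.98), the Pdgfra panel is flat (r = −0.15), and the thalamus markers spread without a trend (r = −0.02).

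Gene lists of the same lineage were set beside the members. Of the 26 other myelin genes, 0 passed the threshold in any of the 4 comparisons and 0 had an unadjusted p under 0.05 in edgeR or DESeq2. Their median log2 fold changes were −0.04 in Pool 1 and 0.04 in Pool 2 against Control, 0.11 between the pools and −0.25 in Control against Vehicle, beside −0.04, 0.08, 0.11 and −0.16 for the 9 members. Without replicate 3 of Vehicle, 3 of the 26 were called lower in Control against Vehicle, as were 1123 of all 25190 genes. Of the 15 cholesterol synthesis enzymes, which supply the main lipid of myelin, 0 passed the threshold in any comparison, with 3 lower at an unadjusted p under 0.05 in Pool 2 against Control in edgeR and 4 in DESeq2, where 7.7% of all genes had such a p in either direction in edgeR, and with 5 lower between the pools in both tools, where 8.52% did. Their medians were −0.16 in Pool 2 against Control and −0.16 against Pool 1. Of the 15, 2 had values above 0 in Pool 2 against Control and 0 in Pool 2 against Pool 1, beside 12759 and 13487 of all 25190 genes. Past the threshold, 1.01% and 1.16% of all genes were lower in these comparisons. The share of all genes that were lower at an unadjusted p under 0.05 was not counted, nor was any such share in DESeq2. Without replicate 4 of Pool 2 the threshold was passed by 3 and 4 of these enzymes as lower, beside 261 and 276 of all genes.

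Of the 10 other precursor genes, Cspg4 alone passed the threshold, in Pool 2 against Control, with a mean of 24.5 against 19.2 CPM, a log2 fold change of 0.35 ± 0.13 (SE), an unadjusted p of 0.0110 and an adjusted p of 0.506 in edgeR. In that comparison 5.2% of all genes passed as higher. Without replicate 3 of Control the log2 fold change of Cspg4 was 0.24, below the fold limit. Without replicate 1 of Control or replicate 2 of Pool 2, 3 of the 10 genes passed as higher, as did 1254 and 1295 of all 25190 genes. Without replicate 5 of Control or replicate 4 of Pool 2, 2 passed, as did 1362 and 1311 of all genes. At an unadjusted p under 0.05, 3 of the 10 were higher in Pool 2 against Control in edgeR and in DESeq2. In Pool 1 against Control these were 1 in edgeR and 2 in DESeq2. Of all genes, 7.7% and 5.22% had such a p in either direction in edgeR. The share higher at that p was not counted, nor was any such share in DESeq2. The list medians were 0.07 in Pool 1 and 0.20 in Pool 2 against Control, 0.12 between the pools and −0.14 in Control against Vehicle. Of the 6 genes of differentiating oligodendrocytes, Bmp4, a secreted factor that restrains oligodendrocyte maturation, passed in Pool 2 against Pool 1, at 3.39 against 2.28 CPM with a log2 fold change of 0.57 ± 0.23 (SE) and an adjusted p of 0.480. Between the pools 5.66% of all genes passed as higher. Bmp4 no longer passed without replicate 1 of Pool 2 (0.45), without replicate 5 of Pool 2 (0.51) or without replicate 1 of Pool 1 (0.45).

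Of 14 ligands and receptors that act on oligodendrocytes, Jag1, a ligand of Notch receptors, passed in Pool 2 against Control with a log2 fold change of 0.54 ± 0.24 (SE) and an adjusted p of 0.600, and it was lost on leaving out 6 of the 10 mice in turn. In that comparison 5.2% of all genes passed as higher. Pdgfc, a ligand of the Pdgfra receptor, and Fgfr2, a fibroblast growth factor receptor, passed in Control against Vehicle as lower, with −0.35 ± 0.14 and −0.32 ± 0.12 (SE) and an adjusted p of 0.734 each in edgeR. There, 3.41% of all genes passed as lower. The Pdgfc call was lost without replicate 1 of either group (−0.29 without that of Vehicle and −0.28 without that of Control), and that of Fgfr2 on leaving out 5 of the 10 mice, its values then running from −0.29 to −0.23. No gene of any list had an adjusted p under 0.05, nor did any of the 25190 genes in edgeR in the 4 comparisons, while DESeq2 had 7 in Pool 1 against Control, 18 in Pool 2 against Control, 115 between the pools and 0 in Control against Vehicle.

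**Figure D5:**
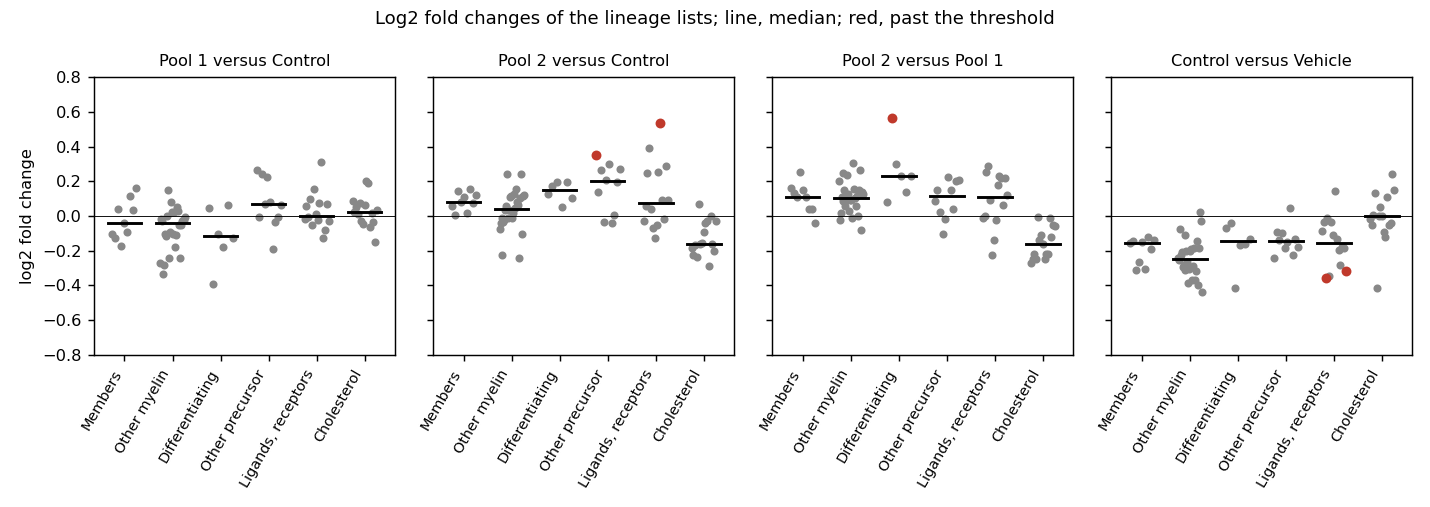
Log2 fold changes (y axis) of the single genes of 6 lists (x axis) in the 4 comparisons, with lines for list medians and red points for genes past the threshold. The lists of members and of other myelin genes hold no red point, and their medians in Control against Vehicle are −0.16 and −0.25.

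Markers of other cells and regions moved between libraries, and their part in the values above was not tested except where a relation is given. Interferon response genes summed to 248 CPM in replicate 1 of Pool 2 and to between 24.6 and 68.9 CPM in all other libraries. All 13 passed the threshold as higher in Pool 2 against Control, as did 6 of 12 microglia markers, 6 of 10 thalamus markers and 5.2% of all genes. In the 18 libraries without replicate 1 of Pool 2 and replicate 4 of Vehicle, these counts were 4, 1 and 7, beside 852 of all 25190 genes. Choroid plexus markers reached 9240.1 CPM in replicate 4 of Vehicle, above all other libraries. The means of the thalamus, neocortex and leptomeningeal lists were not related detectably to the myelin genes, with r = −0.02, −0.12 and −0.06 and rho = 0.04, −0.08 and −0.06 (permutation p from 0.656 to 0.914 for r and from 0.773 to 0.872 for rho, adjusted p of 0.914 and 0.872). Of 7 Schwann cell markers, which would point to myelin of peripheral nerve, 5 were in the table and 3 of those (Prx, Ncmap and Dhh) had a mean under 1 CPM, while Drp2 alone had 95.2 CPM. The 2 markers with a mean of at least 1 CPM had r of −0.23 and −0.06 with the mean of the 6 myelin genes. Whether the tissue held peripheral nerve was not tested. The 9 hippocampal neuron markers were all measured, with sums between 772 and 1297 CPM.

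RNAs without a poly(A) tail or with ribosomal RNA-like reads can reflect how well polyadenylated RNA was selected, which was not measured here. Selection and the infused sRNAs cannot be told apart for these RNAs, and neither was tested. They summed to between 559 and 1817 CPM in Control and to between 1723 and 13803 CPM in Pool 1, where replicate 1, the mouse lowest in myelin genes, was the highest. All 5 of these RNAs in the table passed the threshold as higher in Pool 1 and in Pool 2 against Control, where 1.48% and 5.2% of all genes did. The study itself lists these 5 among the genes higher in both pools of these mice. Their count therefore follows from the choice of the list and is no separate evidence. In Control against Vehicle, where all 9 members had values below 0, all 5 of these RNAs were below 0 too, with a median log2 fold change of −1.28 and 2 of them past the threshold, and so were all 10 choroid plexus markers, with a median of −1.76 and 3 past the threshold. Of all genes, 3.41% passed as lower in that comparison. Replicates 1 and 2 of Vehicle, the highest in myelin genes, had the highest sums of these RNAs in that group, 5035 and 4916 CPM. The part of these RNAs in the member values was not tested beyond the following relation. Over the 20 libraries their mean was not related detectably to the myelin genes, with r = 0.04 and rho = 0.21 (permutation p = 0.883 and 0.453, adjusted p = 0.914 and 0.757). Without replicate 1 of Pool 1 and replicate 5 of Control, r was 0.78 and rho 0.72 (permutation p = 0.00262 and 0.00669, adjusted p = 0.00786 and 0.0201), so the relation of the myelin genes to these RNAs depends on those 2 libraries.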

How the data were processed

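RNA sequencing of the hippocampus was analysed in 20 libraries, 5 per group, grouped by the sample labels. The authors made stranded poly(A) libraries, mapped them with STAR to the GRCm38 genome and GENCODE M20 genes and deposited raw read counts for 25190 genes, each with a sum of at least 10. The sequencing rounds of a library were already summed. Quality was checked with FastQC 0.11.5 according to the submitters' processing notes. The strand setting of the counting was not given in the sources used here.

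Counts were scaled by TMM and tested with edgeR 4.0.16 (quasi-likelihood, robust) in R 4.3.3, with the 4 groups in 1 fit, Benjamini-Hochberg adjustment over all genes and the fold and p threshold of the study. Log2 CPM used a prior count of 2. DESeq2 1.42.0, other filters and scalings, fewer libraries and a replicate block were the alternatives. Scripts were tested on simulated data. RPKM used the exonic lengths of GENCODE M21, in which the 9 genes have the deposited coordinates. Correlations used 100000 permutations within groups (two-sided).

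The members, gene lists and tests were chosen with earlier results of these data known. Apart from all 9 members, the named genes are the list members past the threshold in a comparison (at most 6 per list and comparison), the 10 genes most like the mean of the 6 myelin genes and the 5 most like Pdgfra. The genes of differentiating oligodendrocytes and the precursor and Schwann cell markers given as examples were picked as familiar ones after their values were seen. All replicate pairs within groups differed by more than sampling noise, with a chi-square per degree of freedom of at least 7.59. The labels number the samples of a group without saying that each is a separate mouse; they are called mice here, and p-values measure the spread between these samples. No sequencing batch is named.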

Additional observations from a re-analysis of the deposited data

Results flagged for a closer look

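Cnp in Pool 2 was flagged because 1 sample lay far from the others of its group: replicate 2 had 271 CPM, and the gap to its nearest neighbour was 0.711 of the range of the group, against a critical value of 0.71 for 5 samples. The other 4 Pool 2 mice lay between 344 and 374 CPM. Of 36 groups of values examined (9 genes in 4 groups) this was the only such case, and chance alone gives about 1 in 20. The same mouse was lowest in its group for 8 of the 9 genes.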

How the results depend on the processing

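The count of members past the threshold was 0 in each comparison and direction under all 8 other settings and on leaving out each of the 20 libraries. Of the 36 member values, none called, signs turned in 48 of 648 recomputed values, 39 of them on leaving out a library. In Pool 1 against Control these log2 fold changes then ran from −0.28 to 0.061 for Mbp, −0.27 to 0.042 for Mog, −0.14 to 0.21 for Mag, −0.19 to 0.11 for Cnp, −0.23 to 0.083 for Cldn11, −0.011 to 0.23 for Olig1 and −0.12 to 0.17 for Sox10. In Pool 2 against Control they ran from −0.12 to 0.16 for Mbp, −0.13 to 0.082 for Mog, −0.10 to 0.18 for Mobp, −0.0025 to 0.18 for Cnp, −0.12 to 0.15 for Cldn11 and −0.041 to 0.21 for Sox10, in Pool 2 against Pool 1 from −0.0053 to 0.32 for Mbp, −0.035 to 0.27 for Mog, −0.059 to 0.28 for Mag, −0.0015 to 0.30 for Cnp, −0.065 to 0.19 for Cldn11, −0.071 to 0.17 for Olig1 and −0.073 to 0.20 for Sox10, and in Control against Vehicle from −0.28 to 0.014 for Mbp. In Pool 2 against Control, Mog turned to −0.0049 with DESeq2 size factors in edgeR and in DESeq2, to −0.0089 with edgeR's own filter and to −0.018 with only the groups compared, where Cldn11 was −0.0091. In the 18 libraries without replicate 1 of Pool 2 and replicate 4 of Vehicle, Mbp was −0.080 and Mobp −0.079 in Pool 2 against Control, and Olig1 −0.00014 and Sox10 −0.024 between the pools. Correlations of the myelin genes that were near 0 changed sign: uncentred, r was 0.052 with thalamus, 0.031 with neocortex and 0.054 with leptomeningeal markers, it was 0.030 with thalamus markers in the 18 libraries, and it was 0.19 with neocortex and 0.11 with leptomeningeal markers without the 2 end libraries. Past the adjusted threshold went Pdgfra with the other precursor genes in the 18 libraries (r = 0.68, permutation, adjusted p = 0.0285, while rho was 0.53 with an adjusted p of 0.10; its r ran from 0.15 to 0.68 over the alternatives) and the myelin genes with RNAs without a poly(A) tail without the 2 end libraries (r = 0.78, adjusted p = 0.00786). Among genes of the lists, Bmp4 (0.45) and Fgfr2 (−0.29) were not called in the 18 libraries, nor was Fgfr2 with edgeR's own filter (−0.29). Calls were gained as lower for 1 cholesterol enzyme in Pool 2 against Control with that filter and with only the groups compared, for 1 between the pools with only the groups compared, and for 1 other myelin gene in Control against Vehicle in the 18 libraries. The cause was not tested in any of these cases.

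Replicate numbers showed no clear pairing of the mice, and deviations of same-numbered mice correlated between −0.38 and 0.30. The mean over same-numbered mice ran from −0.13 to 0.10 in the 4 comparisons, against −0.03 to 0.03 for different numbers. With 5 pairs per comparison, these values cannot exclude a pairing. With the replicate block, 0 members passed the threshold, as without it, and the Mbp value in Pool 1 against Control was −0.051. Over all genes, 317 were called higher and 442 lower in Pool 1 against Control and 1190 and 220 in Pool 2 against Control with the block, against 374 and 502, and 1311 and 255, without. EdgeR's own filter gave 178 and 248 in Pool 1 and 788 and 172 in Pool 2, and a minimum mean normalized count of 10 gave 155 and 247 and 852 and 117. In Pool 2 against Control, the 18 libraries gave 852 and 294, and leaving out replicate 1 of Pool 2 alone gave 835 and 294. Without replicate 4 of Control the counts were 481 and 768 in Pool 1 and 1322 and 496 in Pool 2.

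With 5 mice per group and the spread of the myelin genes, the 95% confidence interval holds folds from 0.611 to 1.41 for Mbp in Pool 1 against Control, against 1.01 to 1.25 for Pdgfra. The lowest value of any member was 27.0 CPM, in Mog, and the effect of depth was not tested.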
